A study of Mus musculus with 6 samples.

Results

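A set of 8 genes commonly used to mark fibroblasts in tumors (Pdgfra, Dcn, Lum, Fap, Postn, Fn1, Thy1 and Pdpn) were examined in RNA-seq of tumor endothelial cells (TECs) taken from Lewis lung carcinoma (LLC) tumors. The genes were taken by name, and each of the 8 matched 1 of the 23473 RefSeq rows of the deposited table. In the CD31 bead fractions of NICeCA mice, Pdpn and Postn were higher than in control (Ctrl) mice, by 3.42-fold and 2.65-fold in mean RPKM, and Pdgfra and Lum were lower, at 0.481 and 0.464 of the Ctrl mean. Dcn, Fn1 and Thy1 did not pass the test, and Fap was too low to be tested.

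Both groups were male C57BL/6 mice, labelled as 8 weeks old, that carried subcutaneous tumors of the LLC line, a transplantable mouse lung cancer. The NICeCA mice carried Cdh5-CreERT2, a tamoxifen-dependent Cre driven by the promoter of an endothelial cadherin, together with a Rosa26 allele in which a floxed stop cassette holds back the Notch1 intracellular domain, so that after tamoxifen Notch signaling is active without a ligand in cells that express Cdh5. The Ctrl mice are labelled wild type, and the sources used here do not say whether they carried Cre or the unrecombined allele. There were 3 libraries per group, described in the methods as coming from pairs of mice. The labels say that tumors were taken on different days, whereas the methods give a single day after inoculation for these libraries. Cells were released with collagenase I and DNase I, captured on beads carrying an antibody to CD31, and stated to be more than 90% pure TECs. P-values below set the group difference against the spread between these 3 mice per group. In limma that spread is moderated by that of all genes tested. Whether the day of collection adds to it cannot be told.

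Fibroblasts build and remodel the connective tissue of a tumor. They secrete collagens, proteoglycans and glycoproteins, they cut and crosslink these proteins, and they are guided by growth factors of the platelet-derived growth factor (PDGF) and transforming growth factor-beta (TGF-beta) families. None of the 8 genes belongs to fibroblasts alone: Fn1 is made by many cells, Pdpn also marks lymphatic endothelium and some myeloid and epithelial cells, and Thy1 also marks mouse T cells.

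Promoter sequences were available in the RefSeq promoter table for Postn, Pdpn and Pdgfra, which are 3 of the 4 members that passed the test, and they are shown so that the 2 genes that were higher can be read beside 1 that was lower. Each is the 250 bases before the annotated start, 5′ to 3′ on the gene's strand (GRCm38.p6), with motif matches in capitals.
Postn, chr3:54360857-54361106, plus strand: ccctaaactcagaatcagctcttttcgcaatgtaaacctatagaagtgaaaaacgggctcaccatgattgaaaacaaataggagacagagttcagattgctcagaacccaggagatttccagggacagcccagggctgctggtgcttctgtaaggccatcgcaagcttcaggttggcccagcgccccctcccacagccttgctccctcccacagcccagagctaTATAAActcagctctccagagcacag
Pdpn, chr4:143299565-143299814, minus strand: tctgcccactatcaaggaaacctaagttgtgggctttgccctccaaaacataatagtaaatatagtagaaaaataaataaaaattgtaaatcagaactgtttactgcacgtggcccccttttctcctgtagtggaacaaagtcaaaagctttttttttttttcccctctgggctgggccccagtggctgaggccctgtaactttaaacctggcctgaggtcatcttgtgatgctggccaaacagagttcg
Pdgfra, chr5:75152001-75152250, plus strand: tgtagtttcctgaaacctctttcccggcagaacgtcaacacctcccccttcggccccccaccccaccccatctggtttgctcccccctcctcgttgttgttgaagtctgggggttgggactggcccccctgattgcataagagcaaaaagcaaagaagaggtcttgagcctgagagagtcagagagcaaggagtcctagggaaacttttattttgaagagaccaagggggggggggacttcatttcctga

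Motifs of 4 kinds were searched on both strands of these windows. The first was TGGGAA, the core letters bound by RBPJ, which is the DNA-binding partner of the Notch intracellular domain, and 21.6% of 32851 windows of the same length from all genes held it. The letters of the AP-1 motif were TGANTCA, found in 6.75% of those windows. A GC box was taken as GGGCGG, found in 32.7% of them, and a TATA box as TATAAA, found in 12.4%. The single match in the windows above was the TATA box letters in Postn, beginning 26 bases before the start. The Postn start was that of its row in the expression table, while the starts used for Pdgfra and Pdpn lay 40 and 57 bases from those of their rows. The windows held 4 (Postn), 2 (Pdpn) and 4 (Pdgfra) CpG dinucleotides, against a median of 6 over all windows.

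Between 27793301 and 30769916 reads per library fell on RefSeq rows, and the level of each gene is given in RPKM, which sets reads against gene length and sequencing depth, so that levels can be set side by side between genes. The reads behind a member ranged from 60 for Fap to 151220 for Fn1. Notch1 was at 14.3, 8.19 and 13.8 RPKM in Ctrl and 12.3, 13.6 and 12.6 in NICeCA, and Hey1, a direct Notch target, rose from 3.67 to 8.87 RPKM in mean (adjusted p = 0.041 by limma). The deposited row for Notch1 does not separate the transgene from the gene itself.

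Pdpn and Postn rose. Pdpn encodes podoplanin, a small mucin-like membrane protein and the ligand of the platelet receptor CLEC-2 (chr4:143267422-143299507, minus strand). Its level was 27.2, 36.7 and 51.3 RPKM in Ctrl replicates 1 to 3 and 112, 138 and 143 RPKM in NICeCA replicates 1 to 3. Every NICeCA library was above every Ctrl library, and the lowest of them held over double the level of the highest Ctrl library. The mean was 38.4 ± 12.2 RPKM (SD, n = 3) in Ctrl and 131 ± 17.0 RPKM (SD, n = 3) in NICeCA. On the log2(RPKM + 1) scale the difference was 1.78, with a standard error of 0.23 and a 95% interval from 1.26 to 2.31 (adjusted p = 0.011 by limma over 12320 genes). By p-value it was gene number 58 of those tested. The exact permutation test gave p = 0.1, the smallest that 3 against 3 libraries allow. Without NICeCA replicate 2 the adjusted p was 0.056.

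Postn encodes periostin, a matrix protein that binds integrins and fibronectin and is laid down by activated fibroblasts (chr3:54361107-54391041, plus strand). It stood at 3.19, 2.32 and 3.73 RPKM in Ctrl and 6.79, 6.34 and 11.3 RPKM in NICeCA, again with no overlap. NICeCA replicate 3 was the highest library. The means were 3.08 ± 0.708 RPKM in Ctrl and 8.15 ± 2.75 RPKM in NICeCA (SD, n = 3 each). The log2 difference was 1.14 with a standard error of 0.22 (adjusted p = 0.027 by limma, exact permutation p = 0.1). The call was lost without Ctrl replicate 2 (adjusted p = 0.062), without NICeCA replicate 1 (0.091) and without NICeCA replicate 2 (0.080). Those fits called 244, 90 and 17 of all genes higher, in the same order, beside 725 in the main fit.

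Over all 12320 genes tested, 5.88% were called higher in NICeCA and 7.68% lower, and 16.5% and 24.4% had every NICeCA library above or below every Ctrl library. The 7 members tested held 2 called higher, 2 called lower and 3 not called, and the same 4 genes had separated groups. The median log2 difference of the 7 members was -0.82, against -0.05 over all genes tested.

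**Figure D1:**
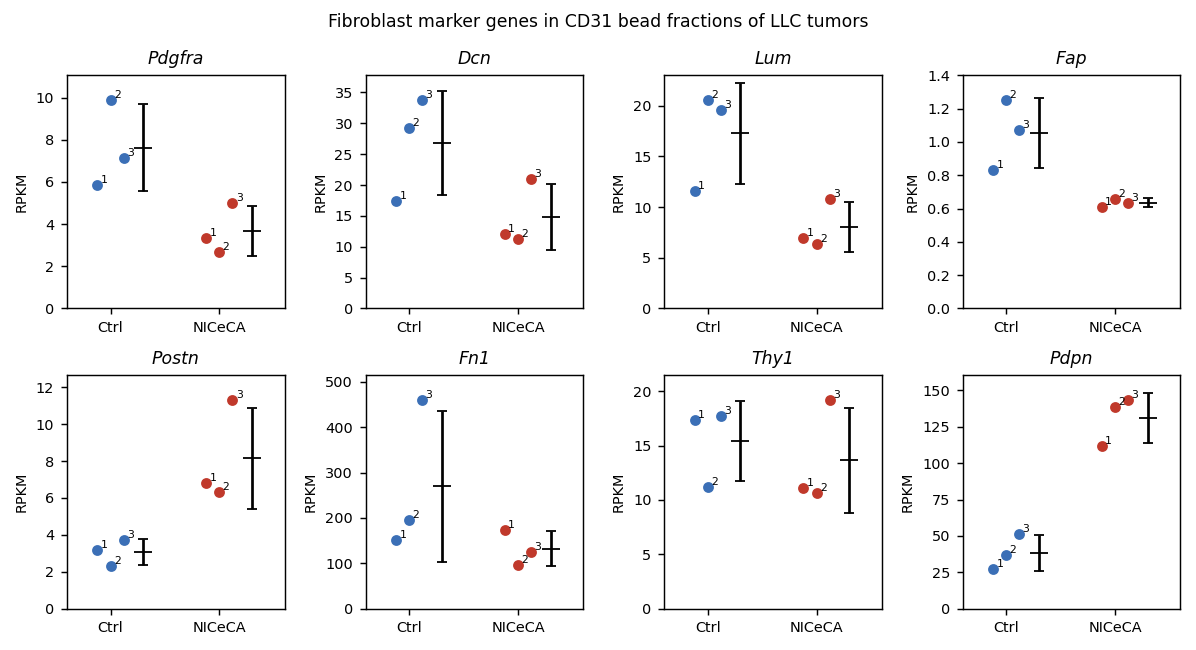
Level of the 8 fibroblast marker genes in RPKM (linear axes from 0, one panel per gene) in the 3 Ctrl libraries (blue) and the 3 NICeCA libraries (red), with replicate numbers beside the points and the mean ± SD in black. Postn and Pdpn lie higher in every NICeCA library, Pdgfra, Lum and Fap lie lower in every one, and Dcn, Fn1 and Thy1 overlap between the groups.

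Among the receptors and surface proteins, Pdgfra, the receptor for PDGF-A and PDGF-C and a broad marker of fibroblasts (chr5:75152291-75198204, plus strand), was lower in NICeCA. Its level was 5.86, 9.91 and 7.13 RPKM in Ctrl and 3.34, 2.68 and 4.99 RPKM in NICeCA. The groups did not overlap, although the nearest libraries, Ctrl replicate 1 and NICeCA replicate 3, were 5.86 and 4.99 RPKM. The log2 difference was -0.89 with a standard error of 0.23 (adjusted p = 0.043 by limma, exact permutation p = 0.1). The adjusted p passed the threshold narrowly, and it did not pass without Ctrl replicate 2 (0.097), Ctrl replicate 3 (0.066), NICeCA replicate 1 (0.14) or NICeCA replicate 2 (0.16). It was 0.11 when the trend of each library with gene length was removed, where the log2 difference was -0.65. It was 0.33 with the mean of the endothelial markers as a covariate, where the difference was -0.56. The fits that left out a library called 135, 744, 14 and 1 of all genes lower, in the order above. With the length trend removed 206 were called lower, and with the covariate 0, beside 946 in the main fit.

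Thy1, a glycolipid-anchored surface protein of fibroblasts, T cells and neurons (chr9:44043384-44048579, plus strand), was at 17.3, 11.2 and 17.7 RPKM in Ctrl and 11.1, 10.6 and 19.2 RPKM in NICeCA. The lowest and the highest of the 6 libraries were both NICeCA. The log2 difference was -0.19, with a 95% interval from -0.77 to 0.40 (adjusted p = 0.62 by limma, exact permutation p = 0.8). A transcript model on the opposite strand lies within the 3′ end of Thy1, and since strand use in counting is not given, reads of the pair cannot be told apart.

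Fap, a membrane serine protease that gives activated fibroblasts one of their names (chr2:62500936-62574021, minus strand), was the lowest member. It reached 0.833, 1.25 and 1.07 RPKM in Ctrl and 0.608, 0.660 and 0.636 RPKM in NICeCA, from 88, 135 and 113 reads and from 60, 63 and 64 reads. The NICeCA libraries were closely grouped and all lay below the lowest Ctrl library. Its mean over the 6 libraries was 0.844 RPKM, under the 1 RPKM needed for the test. The exact permutation test gave p = 0.1, and with no filter on low genes the adjusted p was 0.12 by limma.

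Among the matrix genes, Lum and Dcn were lowest in the same libraries. Lum encodes lumican, a small leucine-rich proteoglycan that spaces collagen fibrils (chr10:97565501-97572703, plus strand). It was at 11.6, 20.6 and 19.6 RPKM in Ctrl and 6.92, 6.32 and 10.8 RPKM in NICeCA, without overlap but with less than 1 RPKM between Ctrl replicate 1 and NICeCA replicate 3. The log2 difference was -1.01 with a standard error of 0.26 (adjusted p = 0.043 by limma, exact permutation p = 0.1). It did not pass without Ctrl replicate 2 (0.10), Ctrl replicate 3 (0.082), NICeCA replicate 1 (0.14) or NICeCA replicate 2 (0.16). Nor did it pass with the length trend removed (0.056) or the endothelial marker mean as a covariate (0.33, log2 difference -0.59). Over all genes these fits called 135, 744, 14, 1, 206 and 0 lower, in the same order, beside 946 in the main fit.

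Dcn encodes decorin, the best known of the same proteoglycan family, which binds collagen and TGF-beta (chr10:97479500-97518162, plus strand), and it lies next to Lum on chromosome 10. Its level was 17.5, 29.2 and 33.8 RPKM in Ctrl and 12.1, 11.3 and 21.0 RPKM in NICeCA. The groups overlapped, because NICeCA replicate 3 exceeded Ctrl replicate 1. The log2 difference was -0.82, with a 95% interval from -1.49 to -0.14 (adjusted p = 0.092 by limma, exact permutation p = 0.2). Leaving out NICeCA replicate 3 brought the adjusted p to 0.047.

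Fn1 encodes fibronectin, which cells assemble into fibrils through integrins (chr1:71585473-71653234, minus strand), and it was by far the most abundant member per length. It was at 152, 196 and 460 RPKM in Ctrl and 173, 97.5 and 126 RPKM in NICeCA. One library, Ctrl replicate 3, stood far above the other 5, which overlapped. The log2 difference was -0.89 with a standard error of 0.40 (adjusted p = 0.15 by limma, exact permutation p = 0.2), and it was -0.42 without Ctrl replicate 3.

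In bulk samples, fewer cells of a type and less RNA per cell cannot be told apart. A ratio of 2 genes within 1 library does not depend on how the library was scaled, and 17 such ratios were computed, of which those given here were chosen after their values were seen. Lum to Dcn was 0.580 to 0.705 in Ctrl and 0.515 to 0.571 in NICeCA, slightly lower in every NICeCA library. Pdgfra to Dcn lay between 0.211 and 0.339 over the 6 libraries, with overlapping groups. Postn to Dcn was 0.182, 0.0795 and 0.110 in Ctrl and 0.560, 0.561 and 0.538 in NICeCA, 4.73-fold higher. Pdpn to Pdgfra was 4.64, 3.70 and 7.20 in Ctrl and 33.4, 51.6 and 28.8 in NICeCA, 7.38-fold higher. Both of these ratios set a gene with a higher level in NICeCA against one with a lower level, so that they restate the values above and are given as a description, with no test.

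**Figure D2:**
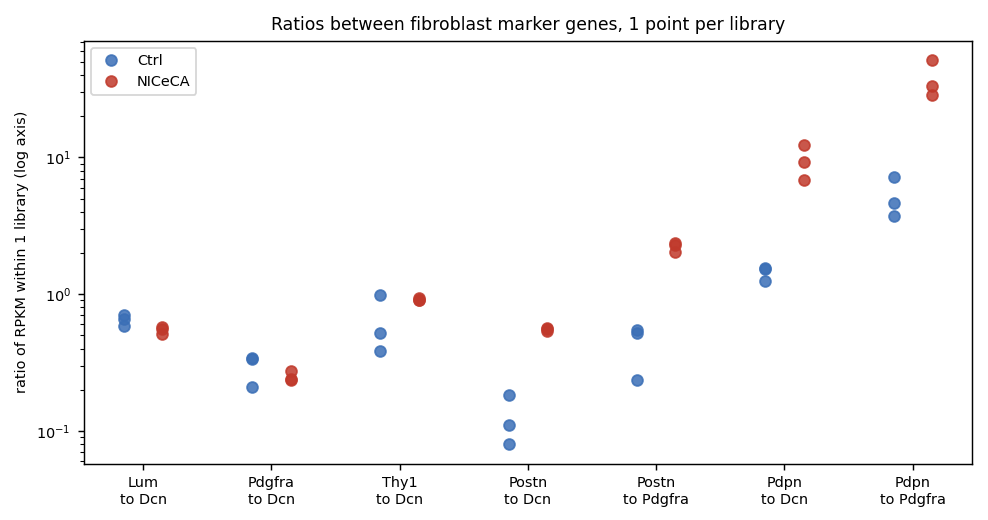
Ratio of the RPKM of 2 fibroblast marker genes within each library (log axis), with 1 point for each Ctrl (blue) and NICeCA (red) library. The ratios of Lum and Pdgfra to Dcn span 0.211 to 0.705 over all libraries, while those of Postn and Pdpn to Dcn or Pdgfra are higher in every NICeCA library.

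Against Pecam1, the gene of the CD31 protein on the beads, Pdgfra was 0.0435 to 0.208 in Ctrl and 0.0175 to 0.0352 in NICeCA, and Pdpn was 0.202 to 0.772 in Ctrl and 0.894 to 1.01 in NICeCA. Neither pair of ranges overlapped. Postn to Pecam1 did overlap, at 0.0237 to 0.0489 and 0.0412 to 0.0799. Pecam1 itself was at 135, 47.5 and 82.6 RPKM in Ctrl and 125, 154 and 142 RPKM in NICeCA.

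The standardized profiles of the members over the 6 libraries fell close to each other in the same way. The root mean square difference of log2(RPKM + 1), standardized per gene, was 0.205 between Lum and Dcn, 0.226 between Pdgfra and Lum, 0.389 between Pdgfra and Dcn and 0.400 between Postn and Pdpn. All other pairs differed by at least 0.645. The 6 genes nearest to the mean profile of the 7 tested members were Ly75, Tbce, Athl1, Mios, Lrrc8b and Scaf11 (0.470 to 0.491), and none of them was called. The members went both ways, so the group difference partly cancels in their mean profile. That none was called is therefore not a result about the members. The genes nearest to single members, looked up after the values had been seen, were Ndufa4l2 and Tagln for Postn (0.0621 and 0.0980), and Prdx6 and Sec22b for Pdpn (0.0703 and 0.0883). For Lum, Pdgfra and Dcn the nearest were Prkci (0.0309), Peo1 (0.0370) and Sec24b (0.0971). Each of these 5 members thus had genes outside the set nearer to it than any other member, so the closeness is not particular to the set. Ndufa4l2 and Tagln are also on the list of pericyte and smooth muscle markers described below. These are descriptions over 6 libraries that share their groups.

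In a wider set of 64 fibroblast genes, in 5 lists by role, most genes were not called. Of 57 tested, 5 (8.77%) were called higher, 6 (10.5%) lower and 46 neither, beside 5.88% higher and 7.68% lower over all genes tested, and the median log2 difference was -0.10. By limma voom on recovered reads the counts were 5 higher and 10 lower, and with the length trend removed they were 6 and 1. The lists below are described by their counts.

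Among 10 collagen genes, which form or decorate fibrils, Col5a2 was called higher and Col3a1, Col5a1 and Col6a2 lower. Col3a1, the main chain of type III collagen, was at 270, 454 and 300 RPKM in Ctrl and 149, 103 and 226 RPKM in NICeCA (adjusted p = 0.048 by limma). Col6a2, a chain of the microfibrillar type VI collagen, was at 62.1, 95.6 and 52.0 RPKM against 27.2, 18.3 and 42.2 RPKM (adjusted p = 0.043). In both genes the groups were separate, and NICeCA replicate 3 was the library nearest to Ctrl. Col5a1 and Col5a2, chains of the type V collagen that sets fibril width, went opposite ways. Col5a1 had a log2 difference of -1.29 and Col5a2 one of 0.82 (adjusted p = 0.048 and 0.044). Both calls were fragile. Col5a2 did not pass with any library left out (adjusted p from 0.059 to 0.13 by limma). Col5a1 then passed only without NICeCA replicate 3 (0.033). With the length trend removed, 1 collagen gene was called higher and 0 lower. Col1a1, the chief chain of type I collagen, was at 9.57, 28.2 and 14.5 RPKM in Ctrl and 11.7, 16.3 and 25.8 RPKM in NICeCA, and was not called (adjusted p = 0.87).

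Of 12 matrix proteins tested, Eln was called higher and Dpt lower. Dpt, encoding dermatopontin, a partner of decorin, was at 69.3, 99.4 and 67.7 RPKM in Ctrl and 36.3, 27.8 and 43.8 RPKM in NICeCA, with separate groups (log2 difference -1.11, adjusted p = 0.025 by limma). Eln, encoding the elastin of elastic fibers, was at 1.76, 0.996 and 1.26 RPKM against 3.12, 6.22 and 3.50 RPKM (log2 difference 1.14, adjusted p = 0.030). Igfbp7, the most abundant gene of this list, was not called (log2 difference 0.67, adjusted p = 0.21), and Ctrl replicate 1 was the highest library for it.

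Of 12 matrix enzymes and inhibitors, 2 were called higher and 0 lower, with 2 lower at an unadjusted p under 0.05 and 0 lower by voom. Ctsk, a collagen-cutting cathepsin best known from osteoclasts, was at 10.1, 3.17 and 13.7 RPKM in Ctrl and 103, 47.7 and 82.7 RPKM in NICeCA (8.67-fold, adjusted p = 0.016 by limma). Mmp13, a collagenase, was at 1.75, 3.60 and 11.9 RPKM in Ctrl and 48.0, 44.7 and 56.7 RPKM in NICeCA (8.68-fold, adjusted p = 0.016). In both, the lowest NICeCA library was above the highest Ctrl library. Mmp14, the most abundant enzyme of the list, differed by -0.20 on the log2 scale, and Pcolce, which enhances procollagen cleavage, by -0.87, neither of them called (adjusted p = 0.24 and 0.097).

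Of 13 secreted factors tested, Inhba was called higher and Has1 lower. Inhba, encoding the subunit of activin A, a TGF-beta family ligand, was at 1.34, 4.16 and 14.9 RPKM in Ctrl and 47.1, 59.3 and 77.2 RPKM in NICeCA (log2 difference 3.40, adjusted p = 0.021 by limma). It was low in Ctrl, with an over 10-fold range between Ctrl replicates 1 and 3, and high in every NICeCA library. Has1, a hyaluronan synthase, was at 4.92, 9.84 and 3.95 RPKM in Ctrl and 0.694, 1.76 and 2.35 RPKM in NICeCA (log2 difference -1.45, adjusted p = 0.037). C3, the abundant complement protein, was not called (log2 difference 0.12).

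Of 10 surface proteins and transcription factors tested, 9 had a negative log2 difference, with a median of -0.81, but only Fgfr1, a fibroblast growth factor receptor, was called lower (35.6, 57.4 and 34.8 RPKM in Ctrl, 21.3, 21.0 and 26.4 RPKM in NICeCA, adjusted p = 0.042 by limma). None was called higher, with 0 at an unadjusted p under 0.05 and 0 by voom. Twist2, a transcription factor of the mesenchyme, had the largest negative value of this list, -1.20, with an adjusted p of 0.052. S100a4 was the only positive one, at 0.21 (adjusted p = 0.40).

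**Figure D3:**
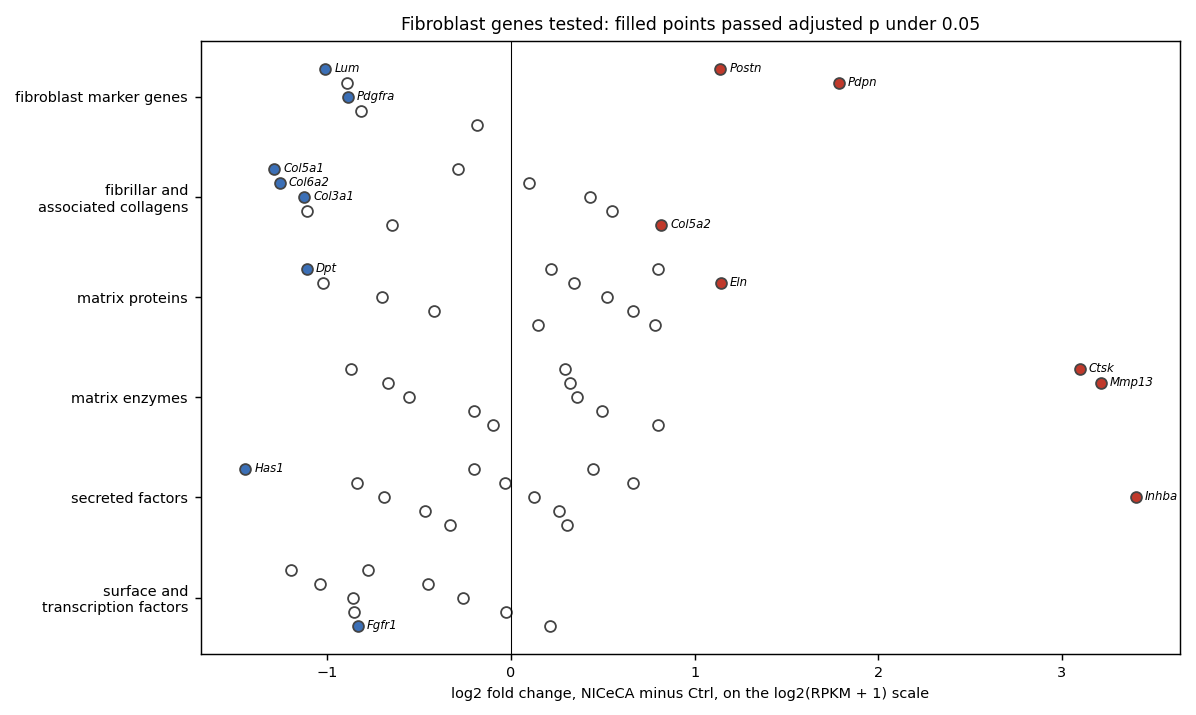
Log2 fold change (NICeCA minus Ctrl, log2(RPKM + 1) scale) of the 7 tested fibroblast marker genes and the 57 tested genes of the 5 wider lists, with 1 point per gene, offset vertically only to keep points apart. Filled points, red for higher and blue for lower, passed adjusted p under 0.05, and calls lie on both sides of 0 in the marker genes, the collagens, the matrix proteins and the secreted factors.

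The families around the members, which include members themselves, are described by the same counts, to be read beside 5.88% higher and 7.68% lower over all genes tested. In the PDGF family of 6 genes, Pdgfc, a ligand of Pdgfra, was called lower beside Pdgfra itself, at 6.21, 8.85 and 7.41 RPKM in Ctrl and 3.91, 3.48 and 5.15 RPKM in NICeCA (adjusted p = 0.038 by limma). Pdgfb, the ligand that endothelium uses to recruit mural cells, was not called (log2 difference -0.06), nor was its receptor Pdgfrb (-0.03). No PDGF gene was called higher, although Pdgfd had a log2 difference of 0.80 (adjusted p = 0.080). That was the 1 PDGF gene higher at an unadjusted p under 0.05, and voom called 0 higher.

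Of 12 small leucine-rich proteoglycans, 5 were tested and Lum alone was called. Bgn, encoding biglycan, the closest relative of decorin, had the only positive value, 0.44, and was not called (adjusted p = 0.21). Of 4 dipeptidyl peptidases of the Fap family tested, Dpp9 was called lower (11.2, 16.5 and 14.7 RPKM against 8.53, 7.30 and 9.18 RPKM, adjusted p = 0.039 by limma), while Dpp8 and Dpp4, the nearest relative of Fap, had log2 differences of -0.14 and 0.04. Of 6 integrin subunits that bind fibronectin or periostin, limma called 0, with 1 higher and 1 lower at an unadjusted p under 0.05 and 0 by voom. Itgb3, the beta3 subunit, had the largest difference of these, 0.75 (adjusted p = 0.089).

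Of 12 genes of TGF-beta signaling tested, Tgfbr3, the co-receptor betaglycan, was called lower. It was at 22.3, 28.7 and 23.3 RPKM in Ctrl and 9.03, 9.50 and 13.6 RPKM in NICeCA, with separate groups (log2 difference -1.15, adjusted p = 0.017 by limma). Tgfbr2, the signaling receptor, was not called (log2 difference -0.06), and neither was Ctgf, a target of the pathway (0.80, adjusted p = 0.14).

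Markers of other cells were measured in the same libraries, since a bead fraction can hold more than endothelium. Their counts, here and in the next paragraph, are to be read beside 5.88% higher and 7.68% lower over all genes tested. All 20 endothelial markers were detected in every library and had positive log2 differences, and 3 of them (Cd93, Flt1 and Vwf) were called higher. Their summed level was 363 to 890 RPKM in Ctrl and 802 to 1003 RPKM in NICeCA, and Ctrl replicate 1, at 890, lay within the NICeCA range. Pericyte and smooth muscle markers, 11 tested, had 4 called higher (Kcnj8, Ndufa4l2, Rgs5 and Tagln), with sums of 62.5 to 113 RPKM and 145 to 236 RPKM. Neutrophil markers, 10 tested, had 8 called higher, with sums of 146 to 307 RPKM and 661 to 1759 RPKM. Of 11 macrophage markers tested, 3 were called higher (Cd14, Cd68 and Fcgr1), and the sums were 7037 to 10044 RPKM and 5430 to 9315 RPKM. The list went both ways, with 6 negative log2 differences, the largest that of C1qa (-0.54), and 0 called lower. With a library left out, higher calls ranged from 0 to 16 (endothelial), 0 to 4 (pericyte), 1 to 8 (neutrophil) and 0 to 3 (macrophage). With the length trend removed they were 3, 1, 6 and 3. Lyz2, a lysozyme of macrophages and neutrophils, was at 2611 RPKM or more in every library, above every endothelial marker, although the labels name the cells as endothelial.

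The T and NK cell list, 12 tested, had 0 called by limma, with 1 lower at an unadjusted p under 0.05 and 0 by voom. Of the 6 lymphatic endothelial markers, 2 were tested and 0 called, with 1 higher at an unadjusted p under 0.05 and 0 by voom. The summed level of this list was 7.50 to 20.4 RPKM in Ctrl and 17.4 to 22.1 RPKM in NICeCA. Lyve1 ranged from 3.65 to 18.2 RPKM over the 6 libraries and Flt4 from 1.27 to 3.79 RPKM, with overlapping groups. Prox1, the factor that defines lymphatic endothelium, was at 0.0124, 0.0121 and 0.0806 RPKM in Ctrl and 0.0861, 0.267 and 0.156 RPKM in NICeCA. Mmrn1 and Reln, with means of 0.239 and 0.0416 RPKM in Ctrl and 1.09 and 0.221 RPKM in NICeCA, were likewise higher in every NICeCA library and, like Prox1, too low to be tested, and Ccl21a was listed at 0 in every library. Of 12 epithelial markers, 10 were under 1 RPKM in every library. Of the 2 tested, Krt18 was called lower, and Cdh1 had a positive log2 difference (0.51) and was not called. No adipocyte marker passed the filter. Of 3 platelet markers tested Pf4 alone was called, from a mean of 130 RPKM in Ctrl to 1017 RPKM in NICeCA. Itga2b and Gp1bb were not called (log2 differences 0.26 and -0.26), and Gp1ba, Gp9, Clec1b and Treml1 were too low to be tested. The part of the cells marked by these lists in the values of Pdpn, Postn, Pdgfra and Lum was not tested. The endothelial covariate that follows cannot separate it from the group, because all 20 endothelial markers had positive log2 differences. With the endothelial marker mean as a covariate, limma called 0 of 12320 genes, with 2135 at an unadjusted p under 0.05, while the log2 difference was 2.03 for Pdpn (adjusted p = 0.079), 1.00 for Postn (0.23), -0.56 for Pdgfra (0.33) and -0.59 for Lum (0.33).

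**Figure D4:**
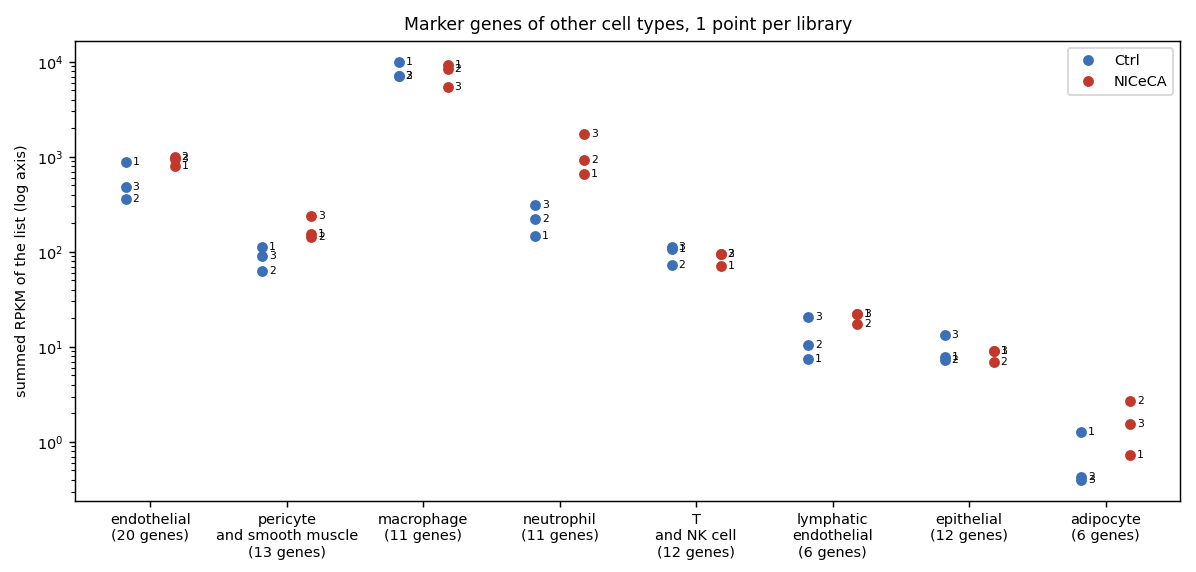
Summed RPKM of marker genes of 8 other cell types (log axis) in each Ctrl (blue) and NICeCA (red) library, with replicate numbers beside the points. Neutrophil and pericyte sums are higher in every NICeCA library, the macrophage sum is the highest in each library, and endothelial sums overlap through Ctrl replicate 1.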

How the data were processed

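Bulk RNA-seq of CD31 bead fractions was compared between 3 Ctrl and 3 NICeCA libraries, grouped by their titles. The authors deposited RPKM values per gene and library, made from paired reads of ribosome-depleted RNA. TopHat2 and mm9 are the tool and build listed in the submitters' processing notes, whereas the members lie at their GRCm38 positions. Sources used here do not give the counting tool or its use of strand. Gene lengths deposited with the table gave whole reads for 100% of values under 1000 reads (tolerance 0.05 reads). There were 0 unused sample columns.

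Log2(RPKM + 1) of RefSeq rows with a mean of at least 1 RPKM (12320 genes) was fitted with limma 3.58.1 in R 4.3.3 (trend, two-sided, Benjamini-Hochberg adjusted p under 0.05). Exact permutation tests used the 20 assignments of 6 libraries. Named genes were the members, up to 4 per list (highest mean, largest rise, largest fall, smallest adjusted p) and the 6 nearest profiles. Col1a1, Pecam1, Pdgfrb, Prox1, Mmrn1, Reln, Ccl21a, Notch1, Hey1 and the platelet markers other than Pf4 and Gp1bb were named after their values were seen. So were the other called genes of the wider fibroblast, endothelial, pericyte and macrophage lists. The members and lists were chosen with earlier results of these data known. Of the listed markers, Adgre1 and Ly6g matched no row. Promoters came from RefSeq (3 of 8 members matched). Alternatives were the replicate block, each library left out, scaling, filters, pseudocount, voom, an endothelial covariate, FANTOM3 rows and, chosen after seeing the data, removal of the trend on gene length (lowess, span 0.3).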

Additional observations from a re-analysis of the deposited data

How the results depend on the processing

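Each member tested kept its direction under all 18 alternatives, but some of these could not change it, since they leave the log2 difference as it was. They were the replicate block, the filters, the fit without trend, the FANTOM3 rows and the adjusted p under 0.10. Of the marker genes, the 2 called higher became 0 with no filter and 0 with the endothelial covariate, in both cases with 2 at an unadjusted p under 0.05, and ranged from 0 to 2 with a library left out. The 2 called lower became 0 with quantile normalization, 0 with no filter, 0 with the endothelial covariate and 0 with the length trend removed (4, 3, 0 and 3 at an unadjusted p under 0.05), and ranged from 0 to 3 with a library left out. They were 0 without Ctrl replicate 2, Ctrl replicate 3, NICeCA replicate 1 or NICeCA replicate 2. Testing without the filter adds rows with few reads, raises the number of tests to 23473 and makes the limma fit anew over all of them. Several of these settings also called few genes over the whole table. There were 42 higher and 9 lower with no filter, and 0 of either with the endothelial covariate. Without NICeCA replicate 2 there were 17 and 1, and without NICeCA replicate 1 there were 90 and 14. A count of 0 members in these settings is therefore not a result about the members. The cause of the losses, with no filter or in the other settings, was not tested.

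Of the wider fibroblast genes, the 5 called higher became 0 with no filter, 3 at a mean of at least 5 RPKM, 0 with the covariate and 8 at an adjusted p under 0.10, and ranged from 0 to 7 with a library left out (2 without Ctrl replicate 2, 0 without NICeCA replicate 1 or 2). The 6 called lower became 3 with trimmed mean scaling, 3 with quantile normalization, 0 with no filter, 10 with voom, 0 with the covariate, 10 with FANTOM3 rows, 15 at an adjusted p under 0.10 and 1 with the length trend removed, and ranged from 0 to 12 with a library left out (3 without Ctrl replicate 1, 0 without Ctrl replicate 2 or NICeCA replicate 1 or 2, 12 without NICeCA replicate 3). Where these counts were 0, 8 to 11 genes for the higher and 3 to 15 for the lower count had an unadjusted p under 0.05. The counts over all genes were also low in these settings.

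Over all genes, 725 were called higher and 946 lower, so that 43.4% of calls were higher. That share was 58.5% with trimmed mean scaling (1011 and 717), 57.8% with quantile normalization (446 and 325), 33.8% with voom (683 and 1337), 32.0% with FANTOM3 rows (1026 and 2185), 74.1% with the length trend removed (590 and 206) and 82.4% with no filter (42 and 9). Leaving out NICeCA replicate 1 gave 90 higher and 14 lower, leaving out NICeCA replicate 2 gave 17 and 1, and leaving out Ctrl replicate 2 gave 244 and 135.

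With the replicate number as a block, the marker genes called lower were 1 (Lum, with Pdgfra at an adjusted p of 0.070), the wider fibroblast genes were 3 higher and 1 lower, and all genes were 327 and 209. Libraries with the same number had deviations from their group means that correlated by 0.12, -0.34 and -0.18. NICeCA replicate 2 and 3 each correlated better with another number than with their own. The numbers were therefore not taken as pairs in the main fit. With 3 libraries per group, these correlations cannot show that the mice were unpaired.

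The depth limits Fap, which had 60 to 135 reads per library. The smallest exact p with 3 libraries per group is 0.1.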
